A study of Mus musculus with 12 samples.

Results

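The genes of MHC class I antigen presentation were followed through activation of mouse CD8+ T cells with and without lactate. The 10 genes were chosen by name, as the rows of the raw count table with the symbols H2-K1, H2-D1, B2m, Tap1, Tap2, Tapbp, Psmb8, Psmb9, Psmb10 and Nlrc5, out of 13780 genes in the table. All 10 passed the filter of at least 1 CPM, the count scaled to the total of its library, in 3 or more libraries, which 13767 genes passed. The CPM of genes given below are scaled to library totals corrected by TMM factors. Only the sums of cell markers are scaled to the plain totals. The RNA sequencing covered 12 libraries of splenic CD8+ T cells from wild type C57BL/6J mice of 8 to 12 weeks, purified by positive selection on magnetic beads. In 4 naïve libraries the cells were frozen straight after purification, and in 4 media libraries they were activated for 72 h with beads carrying antibodies to CD3 and CD28, with 10 U/ml recombinant human IL-2. The other 4 libraries, called lactate here, had the same activation with 40 mM sodium lactate added. The naïve libraries came from 4 mice and the activated ones from 5 independent mice, of which 3 gave both kinds of activated library. The comparison group for lactate was plain media and not sodium chloride, so the lactate anion, sodium and osmolarity cannot be told apart. The total count per library lay between 14726904 and 21478137.

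Class I molecules display peptides from inside the cell to CD8+ T cells, and T cells carry them on their own surface as almost every nucleated cell does. The proteasome cuts proteins into peptides, the transporter TAP moves these into the endoplasmic reticulum, and a loading complex fits them to a heavy chain paired with beta-2 microglobulin. Interferon-gamma is a known inducer of most of these genes, and it exchanges the constitutive catalytic subunits of the proteasome for the subunits of the immunoproteasome. In lymphocytes NLRC5 is the known transactivator of the class I genes, and it acts through factors that sit on a shared promoter module.

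That module is shown here for H2-K1 and B2m, since it is where NLRC5 and its partner factors are known to act. In these genes the core of the X2 box, TGACG, is known to take CREB and ATF factors, and the Y box, CCAAT, is known to take NF-Y. Upstream of them lie an IRF core, AANNGAAA, and in the heavy chains a kappaB core, GGGATTCCC. The sequences come from RefSeq promoter windows on GRCm38.p6, which run from 250 bases before to 50 after each annotated start. Capitals mark matches to these 4 motifs on either strand, and each line reads in the direction of transcription.
H2-K1, chr17:34000351-34000465, minus strand: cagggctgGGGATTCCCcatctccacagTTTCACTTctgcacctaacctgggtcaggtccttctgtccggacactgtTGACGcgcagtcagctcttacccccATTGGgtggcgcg
B2m, chr2:122147542-122147646, plus strand: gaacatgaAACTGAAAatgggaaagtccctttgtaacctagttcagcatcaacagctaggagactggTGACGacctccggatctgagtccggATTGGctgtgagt
For H2-D1 and Tap1 only the surroundings of the X2 core are shown, since their windows overlap annotated transcript ends. The window of H2-D1 lies wholly inside the gene span of the GENCODE annotation.
H2-D1, chr17:35262980-35263009, plus strand: gccgggacactgaTGACGcgctggcaggtc
Tap1, chr17:34187457-34187486, plus strand: gcccagagacaggTGACGacagagggtcct

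Of the 10 genes, 8 had a window in the RefSeq table, and Tap2 and Nlrc5 had none. The X2 core was found in 5 of the 8, namely H2-K1, H2-D1, B2m, Tap1 and Psmb9, against 20.8% of the 32851 mouse windows. The Y box was found in 6 of the 8, those 5 genes and Tapbp, against 37.4% of all windows. These counts take a match anywhere in the window. Positions count from the RefSeq start. For H2-D1, Tapbp, Psmb8 and Psmb9 the window lies wholly inside the GENCODE gene span given below, whose start is further upstream. The X2 core and a Y box began at -41 and -16 in H2-K1, -101 and -76 in H2-D1, and -78 and -53 in B2m. In Tap1 the Y box began at -222, upstream of the X2 core at -86. In Psmb9 they began at -8 and -144, and Tapbp had no X2 core. The IRF core stood in H2-K1, H2-D1 and B2m, with 23.9% of all windows holding it. The kappaB core stood in H2-K1 and H2-D1, with 0.353% of all windows holding it. A GAS motif, TTCNNNGAA, was matched in Psmb8, with 8.3% of all windows holding it. Psmb10 matched none of the 5 motifs. Of the constitutive subunits of the proteasome, Psmb5 and Psmb6 had a window and Psmb7 had none. Both windows held the X2 core and neither held a Y box, and that of Psmb6 also held an IRF core. The X2 core was thus not particular to the class I genes. The heavy chains are related in sequence, and the windows of Tap1 and Psmb9, which are transcribed away from each other, overlap by 275 bases and share a single X2 core. The counts of genes are therefore not counts of independent promoters. A match describes the letters only.

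Against media, lactate libraries held lower levels of 4 of the 10 genes and higher levels of none (edgeR quasi-likelihood test, adjusted p at most 0.01 over all genes tested). The 4 were Tap1, Nlrc5, H2-K1 and Tapbp. Among all tested genes, 25.1% were called in this comparison, 13.9% higher and 11.1% lower. The log2 difference was negative for 9 of the 10, and its median over the 10 was -0.39 against 0.00 over all tested genes. For 7 of the 10, every lactate library lay below every media library, which held for 21.5% of all genes. For none of the 10 did every lactate library lie above every media library, against 23.2% of all genes, and 44.7% of all genes showed no overlap in either direction. With the donor as a block, which joins the media and lactate libraries of 3 mice, Tap1 alone of the 10 was called, and 7.21% of all genes were called in that fit. In bulk RNA, fewer cells of a type and less RNA per cell cannot be told apart. Of the 4 CD8+ T cell markers, Cd3d and Cd3e, which code for chains of the T cell receptor complex, were lower in lactate, with means of 436 and 261 CPM for Cd3d (-0.74 ± 0.15, adjusted p = 0.00233) and 669 and 357 CPM for Cd3e (-0.91 ± 0.13, adjusted p = 0.000269). The chains of CD8 itself overlapped between the groups, with means of 916 CPM in media and 824 CPM in lactate for Cd8a (-0.15 ± 0.25, adjusted p = 0.672) and 426 and 519 CPM for Cd8b1 (0.29 ± 0.23, adjusted p = 0.343). The 4 markers summed to 2293 to 2794 CPM in media and 1755 to 2266 CPM in lactate libraries.

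**Figure D1:**
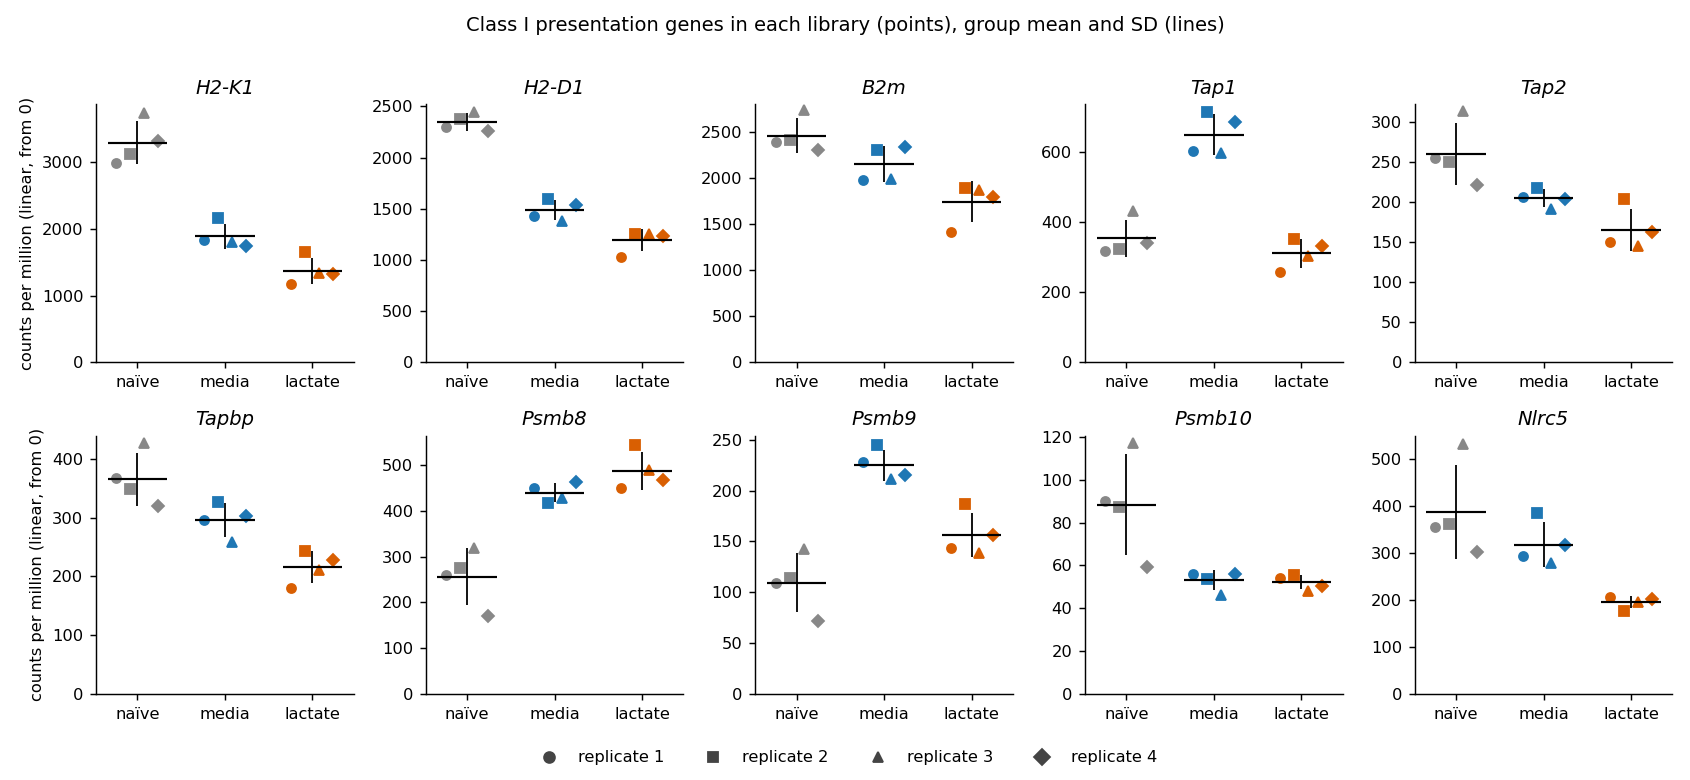
CPM (linear axis from 0) of the 10 class I presentation genes in each of the 12 libraries, by group. Points are libraries, with a symbol for each replicate number, and lines are the group mean and SD of 4 libraries. Tap1 and Psmb9 peak in media libraries, Psmb8 is higher in both activated groups than in naïve libraries, and H2-K1, H2-D1 and Nlrc5 have their lowest means in lactate libraries.

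The presented molecule consists of a heavy chain, here H2-K1 or H2-D1, and the light chain B2m. H2-K1 (ENSMUSG00000061232, chr17:33996017-34000347, minus strand) was at 1837, 2168, 1799 and 1748 CPM in the media libraries and at 1178, 1645, 1336 and 1324 CPM in the lactate libraries. The highest lactate library, replicate 2, stayed below the lowest media library. The log2 difference was -0.46 ± 0.12 (SE) with an adjusted p of 0.00813, and under the donor block -0.39 with an adjusted p of 0.0631. The call was held in 14 of 24 alternative analyses.

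H2-D1 (chr17:35262730-35267499, plus strand) was at 1432, 1594, 1380 and 1536 CPM in media and at 1033, 1254, 1257 and 1236 CPM in lactate. The groups did not overlap, and lactate replicate 1 was well below the other lactate libraries. The log2 difference of -0.31 ± 0.09 (SE) had an adjusted p of 0.013, which missed the threshold. B2m (chr2:122147686-122153083, plus strand) was at 1979, 2307, 1994 and 2340 CPM in media and at 1420, 1894, 1872 and 1791 CPM in lactate. These groups did not overlap either, with a log2 difference of -0.31 ± 0.11 (SE) and an adjusted p of 0.0416.

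The heavy chains had already been lower in media than in naïve libraries, while B2m had not been called. H2-K1 had 2985, 3121, 3733 and 3316 CPM in the naïve libraries, all above the media libraries, and the log2 difference of media against naïve was -0.80 ± 0.12 (adjusted p = 6.14e-05). H2-D1 had 2298, 2381, 2449 and 2260 CPM in the naïve libraries, with a log2 difference of -0.66 ± 0.09 (adjusted p = 2.59e-05). For B2m the naïve libraries ranged from 2304 to 2735 CPM, and the log2 difference of -0.19 ± 0.11 had an adjusted p of 0.136. The ratio of heavy to light chain RNA within each library, which does not depend on library scaling, was lower after activation. H2-K1/B2m had a geometric mean of 1.33 in naïve, 0.876 in media and 0.785 in lactate libraries, and H2-D1/B2m one of 0.955, 0.69 and 0.687.

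Both ratios were lower in every media than in every naïve library, with log2 differences of -0.61 for H2-K1/B2m and -0.47 for H2-D1/B2m (exact permutation test, two-sided, p = 0.0286 each, the smallest that 4 against 4 libraries allow, and 0.0476 adjusted over 15 tests). Between lactate and media the ratios overlapped. The log2 difference was -0.16 for H2-K1/B2m (exact permutation p = 0.1714) and -0.01 for H2-D1/B2m (exact permutation p = 0.9429).

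Per length, B2m had the highest level of the 10 genes in every group, with a mean of 9762 TPM (a level corrected for gene length and depth) in naïve, 8674 in media and 6384 in lactate libraries. H2-K1 followed with 3822, 2230 and 1473 TPM and H2-D1 with 3104, 1996 and 1459 TPM. In the naïve libraries the ranges of these 3 genes were separate, whereas H2-K1 and H2-D1 overlapped in media and in lactate libraries. The other 7 genes had mean levels between 72.7 and 455.7 TPM in the activated groups and between 101.6 and 343.3 TPM in the naïve group. In the naïve group each neighbour pair among those 7 overlapped. In the media group Tap1 was separate above Tapbp, Tapbp above Psmb9, and Tap2 above Nlrc5. In the lactate group Psmb8 was separate above Tapbp, Psmb9 above Psmb10, and Psmb10 above Nlrc5, which had the lowest mean.

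Peptides reach the heavy chain through TAP, a pair of the subunits TAP1 and TAP2, and tapasin, the product of Tapbp, bridges TAP to the empty class I molecule. Tap1 (chr17:34187553-34197225, plus strand) showed the largest difference of the 10 genes between lactate and media. It was at 601, 712, 597 and 685 CPM in media libraries and at 257, 351.5, 302 and 330.5 CPM in lactate libraries, so the groups lay far apart. The log2 difference was -1.06 ± 0.13 (SE, adjusted p = 0.000112), and the call was held in all 24 alternatives, the donor block included (-1.01, adjusted p = 0.00483). Within the 3 donors that gave both libraries the log2 difference was -1.23, -0.76 and -1.05.

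Tap1 was also higher in media than in naïve libraries, which were at 317, 323.5, 432 and 340 CPM, by 0.88 ± 0.13 on the log2 scale (adjusted p = 5.26e-05). The lactate libraries thus lay in and just below the naïve range, with a log2 difference of -0.19 ± 0.13 against naïve (adjusted p = 0.195).

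Its partner Tap2 (chr17:34203527-34216321, plus strand) moved less. Media libraries held 206, 218, 191 and 204 CPM and lactate libraries 150, 203.5, 146 and 163 CPM, with lactate replicate 2 inside the media range. The log2 difference of -0.31 ± 0.13 had an adjusted p of 0.0696. Of its exon bases, 18.5% overlap Gm15821 and Gm20496 on the opposite strand. Against naïve libraries, at 256, 250.4, 313.5 and 221.5 CPM, the lactate libraries were lower by -0.65 ± 0.13 (adjusted p = 0.000438), while media libraries were not called (-0.35 ± 0.13, adjusted p = 0.0269).

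Tapbp (chr17:33915899-33929292, plus strand) was at 296, 326, 258 and 303 CPM in media and at 179.5, 243, 211.5 and 228 CPM in lactate, with no overlap. Its log2 difference was -0.46 ± 0.12 (adjusted p = 0.00929) and the call was held in 12 of 24 alternatives, with -0.41 and an adjusted p of 0.0954 under the donor block. Of its exon bases, 24.9% overlap Gm19412 on the opposite strand and 4.11% overlap Zbtb22 on the same strand. The strand setting of the counting was not stated. Lactate against naïve gave -0.76 ± 0.12 (adjusted p = 8.24e-05), and media against naïve was not called (-0.31 ± 0.12, adjusted p = 0.0367).

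**Figure D2:**
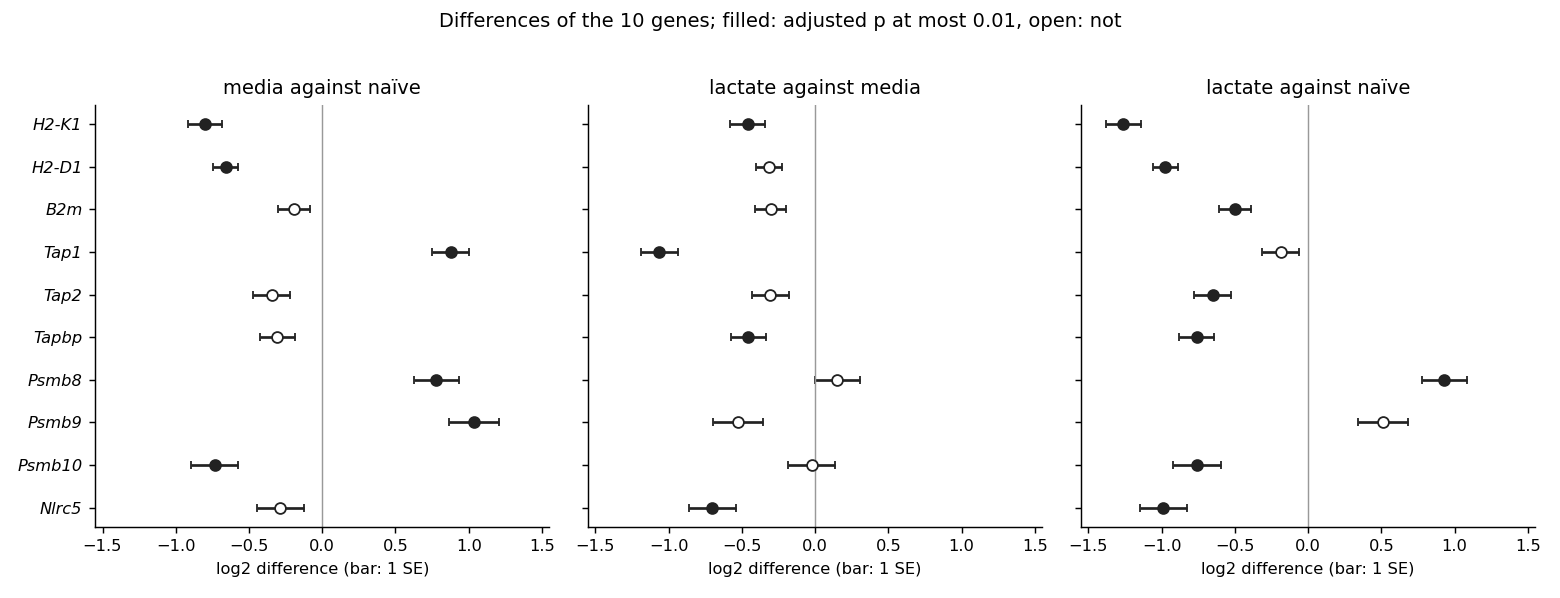
log2 differences of the 10 genes (points) with 1 SE (bars) for media against naïve, lactate against media and lactate against naïve; filled points have an adjusted p of at most 0.01 and open points do not. Tap1, Psmb8 and Psmb9 lie to the right of 0 in media against naïve, and in lactate against media all genes but Psmb8 lie to the left of 0.

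The 3 immunoproteasome subunits PSMB8, PSMB9 and PSMB10 take the places of the constitutive subunits PSMB5, PSMB6 and PSMB7 in the catalytic chamber. None of the 3 was called between lactate and media. Psmb9 (chr17:34181987-34187764, minus strand) was at 228, 245, 211 and 215 CPM in media and at 143, 187, 139 and 156 CPM in lactate. Those groups did not overlap, but the log2 difference of -0.52 ± 0.17 had an adjusted p of 0.0266. Psmb8 (chr17:34197721-34201454, plus strand) was at 450.1, 417, 428 and 464 CPM in media and at 449.8, 545, 489 and 468 CPM in lactate. The ranges of Psmb8 overlapped, with a log2 difference of 0.15 ± 0.15 (adjusted p = 0.472). Psmb10 (chr8:105935735-105938444, minus strand) ranged from 46.3 to 56.2 CPM in media and from 48.3 to 55.7 CPM in lactate, with a log2 difference of -0.02 ± 0.16 (adjusted p = 0.931).

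The 3 subunits differed in direction between media and naïve libraries. In media against naïve, Psmb9 rose by 1.04 ± 0.17 on the log2 scale from 109, 114, 143 and 72.2 CPM (adjusted p = 0.000153). Psmb8 rose by 0.78 ± 0.15 from 260.3, 275.5, 319 and 170.3 CPM (adjusted p = 0.000624). Psmb10 changed by -0.74 ± 0.16 from 90.1, 87.1, 117 and 59.4 CPM (adjusted p = 0.00139). Naïve replicate 4 was the lowest naïve library for all 3 subunits. It belongs, by the library numbers in the labels, to a high run with media replicate 4 and lactate replicates 3 and 4. Within that run Psmb10 differed by -0.08 between media and naïve. The means of Psmb8 rose from naïve to media to lactate, and lactate against naïve gave 0.93 ± 0.15 (adjusted p = 0.000132). Of the exon bases of Psmb8, 14.7% overlap Gm20496 on the opposite strand, and Tap1 and Psmb9 overlap each other there by 3.87% and 5.79%.

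The constitutive subunits were all higher in lactate than in media. Psmb5 was at 22.4, 13.9, 19.0 and 20.2 CPM in media and at 42.2, 40.5, 36.5 and 37.7 CPM in lactate, a log2 difference of 1.06 ± 0.15 (adjusted p = 0.000231). Psmb6 had means of 113 and 177 CPM (0.65 ± 0.11, adjusted p = 0.00093) and Psmb7 of 122 and 203 CPM (0.73 ± 0.09, adjusted p = 0.000101). With the donor block Psmb6 had an adjusted p of 0.0258, and Psmb5 and Psmb7 were still called. No media library overlapped a lactate library for any of these. Of the exon bases of Psmb7, 11.8% overlap Nek6 on the opposite strand, and of those of Psmb5 12.1% overlap Mir686 on the same strand. Of the distinct stretches of read length, 71 bases, in Psmb5 transcripts, 35.1% also stood in transcripts of Gm3375, and only uniquely mapped reads were counted.

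The ratio of each immunoproteasome subunit to the subunit it replaces was lower in every lactate than in every media library. Psmb8/Psmb5 lay between 20.1 and 30.1 in the 4 media libraries and between 10.7 and 13.5 in the 4 lactate libraries. Psmb9/Psmb6 was 1.89, 2.43, 1.97 and 1.74 in media and 0.84, 1.13, 0.746 and 0.843 in lactate. Psmb10/Psmb7 was 0.446, 0.511, 0.359 and 0.433 in media and 0.285, 0.275, 0.227 and 0.242 in lactate. The log2 differences were -0.93, -1.18 and -0.76, each with an exact permutation p of 0.0286, two-sided, and an adjusted p of 0.0476. These ratios are of CPM and so carry the lengths of the genes, which cancel in a comparison between libraries.

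Psmb10/Psmb7 was lower in every activated library than in every naïve library, with log2 differences of -1.78 for media and -2.54 for lactate (exact permutation p = 0.0286 each). Psmb8/Psmb5 and Psmb9/Psmb6 overlapped between naïve and media, with log2 differences of 0.33 and 0.46 (exact permutation p = 0.4 and 0.2). In lactate against naïve their log2 differences were -0.60 and -0.72, with overlap (exact permutation p = 0.1143 each). Within the high run, with 2 lactate libraries and 1 naïve library, the lactate against naïve differences were 0.27 and 0.012. Naïve replicate 4 had the lowest value of the naïve libraries in all 3 ratios, at 10.7 for Psmb8/Psmb5, while the other naïve libraries lay between 21.3 and 25.7.

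**Figure D3:**
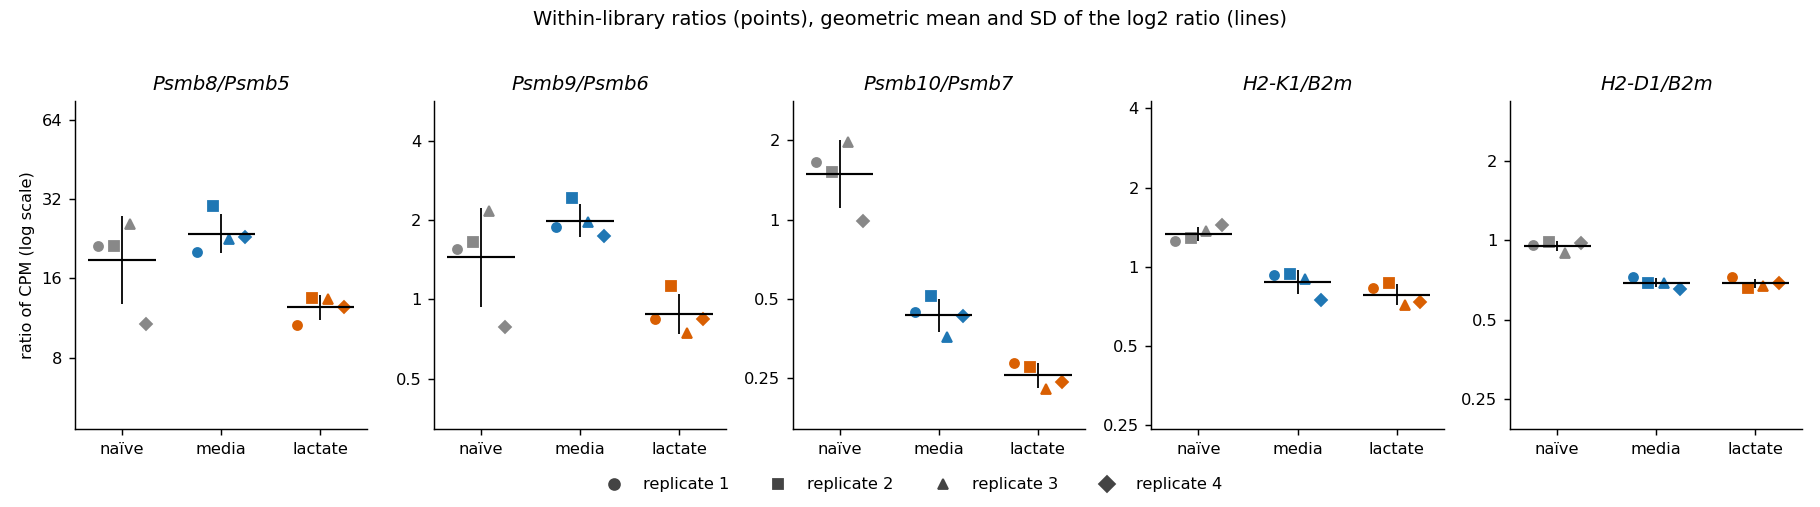
Within-library ratios of CPM (log axis) of each immunoproteasome subunit to its constitutive counterpart and of each heavy chain to B2m, in the 12 libraries; lines are the geometric mean and SD of the log2 ratio of 4 libraries. The 3 proteasome ratios are lower in all lactate than in all media libraries, and the heavy to light chain ratios are lower in all activated than in all naïve libraries.

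Nlrc5 (ENSMUSG00000074151, chr8:94434356-94527272, plus strand), the transactivator, was at 293, 385, 278 and 317 CPM in media and at 208, 177, 195 and 202 CPM in lactate libraries. The lactate libraries were close to each other and all below the media libraries, with a log2 difference of -0.70 ± 0.16 (adjusted p = 0.00434). The call was held in 17 of 24 alternatives, and with the donor block the difference was -0.60 with an adjusted p of 0.0687. All 3 donors with both libraries had less Nlrc5 in lactate, by -0.50, -0.65 and -0.65 on the log2 scale. Naïve libraries ranged from 302 to 532 CPM and overlapped the media libraries (-0.29 ± 0.16, adjusted p = 0.131), while lactate against naïve gave -0.99 ± 0.16 (adjusted p = 0.000114).

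Of the 12 other factors that bind class I promoters, 4 were lower in lactate than in media and none was higher, where 11.1% of all genes were called lower and 13.9% higher. They were Rfx5 and Rfxank, which code for subunits of the RFX complex on the X1 box, Creb1, which codes for a factor of the X2 box, and Irf2, which codes for an interferon regulatory factor. Irf2 was at 114, 170.2, 120 and 130.3 CPM in media and at 59.8, 57.8, 60.8 and 67.8 CPM in lactate (-1.12 ± 0.13, adjusted p = 8.06e-05). Rfx5 was at 55.0, 58.0, 54.5 and 50.1 CPM in media and at 33.5, 36.0, 31.1 and 34.3 CPM in lactate (-0.69 ± 0.09, adjusted p = 0.000134). No library of one group reached the other for either gene. Rfxank had a log2 difference of -0.58 ± 0.13 (adjusted p = 0.00391) and Creb1 one of -0.60 ± 0.13 (adjusted p = 0.00411), with adjusted p values of 0.0455 and 0.0418 under the donor block. Of the exon bases of Rfx5, 26.8% overlap B230398E01Rik on the opposite strand, and of those of Rfxank 33.8% overlap Nr2c2ap there.

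Irf1, which interferon-gamma is known to induce, varied widely among the activated libraries. Media libraries held 95.3, 161, 97.8 and 557 CPM and lactate libraries 52.8, 78.2, 257 and 315 CPM, and in both activated groups the libraries of the high run were the highest. The log2 difference of -0.37 ± 0.63 had an adjusted p of 0.677. Within the low run it was -0.83 and within the high run -0.97, and it was -0.85, -0.32 and -0.82 in the 3 donors with both libraries. With the donor block it was -0.67 (adjusted p = 0.0885). Without media replicate 4, which leaves media libraries of the low run only, it was 0.57. The remaining factors that were not called were Rfxap, the NF-Y genes Nfya, Nfyb and Nfyc, Atf1, and the NF-kappaB genes Rela and Nfkb1. For Atf1 (0.28 ± 0.08, adjusted p = 0.0129) and Nfkb1 (0.35 ± 0.20, adjusted p = 0.196) every lactate library was above every media library.

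Ciita, the class II counterpart of NLRC5, is listed here because class II transcripts of other cells can reach the libraries. It had a mean of 79.5 CPM in naïve, 0.56 in media and 0.039 CPM in lactate libraries, none of which had over 2 counts.

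In the interferon-gamma axis, 6 genes, the ligand gene was higher in lactate than in media and 2 kinase genes were lower. Ifng was at 5.73, 1.53, 2.84 and 14.5 CPM in media and at 213, 43.0, 119 and 40.6 CPM in lactate libraries. Each lactate library was above each media library (4.09 ± 0.84, adjusted p = 0.00239), and the size varied widely. It was 4.98 within the low run and 2.26 within the high run, and 5.19, 3.87 and 1.48 in the 3 donors with both libraries. It was 3.47 without lactate replicate 1 and 4.92 without media replicate 4. Of its exon bases, 25.9% overlap Gm49751 on the same strand. The kinase genes Jak1 and Jak2, whose products sit on the receptor, were lower in lactate, from means of 520 to 337 CPM for Jak1 (-0.62 ± 0.12, adjusted p = 0.00197) and 156 to 86.7 CPM for Jak2 (-0.85 ± 0.14, adjusted p = 0.000632). Under the donor block the adjusted p was 0.043 for Ifng, 0.0339 for Jak1 and 0.0171 for Jak2.

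The receptor genes were not called, although every lactate library was below every media library for both. Ifngr1 had means of 328 and 122 CPM (-1.42 ± 0.42, adjusted p = 0.018) and Ifngr2 of 14.7 and 7.20 CPM (-1.04 ± 0.34, adjusted p = 0.0284). In naïve libraries Ifngr1 was at 271, 241.5, 235.5 and 1008 CPM, and without naïve replicate 4, the high value, its adjusted p for lactate against media was 6.54e-05. That was its smallest value, and each of the 2 receptor genes was called in 4 of 24 alternative analyses. Under the donor block the adjusted p was 0.186 for Ifngr1 and 0.102 for Ifngr2.

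Around these 10 genes, 51 further rows of the class I pathway were tested, and 21 were called between lactate and media, 11 higher and 10 lower, beside 25.1% of all genes called, 13.9% higher and 11.1% lower. With the donor block 10 were called, where 7.21% of all genes were. The median log2 difference of the 51 was -0.28. The other class I heavy chains, 14 rows of H2-Q, H2-T and H2-M genes with the class I-like Mr1 and Cd1d1, held 12 negative differences and a median of -0.77. Of these 3 were called, a share near that of all genes. H2-Q4 was at 380, 538, 430.3 and 396 CPM in media and at 135, 240, 173 and 175 CPM in lactate (-1.27 ± 0.19, adjusted p = 0.000296), and its call was held in all 24 alternatives. Of its exon bases, 19.1% overlap Gm11131 on the opposite strand. H2-M3, which presents formylated peptides, was lower as well (-0.58 ± 0.12, adjusted p = 0.00316). H2-T23, which codes for Qa-1, was lower in each lactate library but was not called (-0.77 ± 0.21, adjusted p = 0.0109). H2-Q10 was the exception in the upward direction, with means of 20.9 and 41.2 CPM (0.98 ± 0.25, adjusted p = 0.0079). With the donor block H2-M3 and H2-Q10 had adjusted p values of 0.0327 and 0.0188.

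Reads of such related genes can be lost where the sequences are the same, since only uniquely mapped reads were counted. Of the distinct stretches of 71 bases in their transcripts, 3.68% of H2-K1, 5.75% of H2-D1, 8.64% of H2-Q4, 6.55% of H2-T23 and 13.3% of H2-Q10 also stood in transcripts of other genes. For B2m, Nlrc5, Psmb8, Psmb9 and Psmb10 that share was 0%. When the 14 heavy chain genes of the H2-K, H2-D, H2-Q, H2-T and H2-M groups were summed to 1 value, with H2-K1 and H2-D1 as the main part, it was 8101 CPM in naïve, 5543 CPM in media and 3767 CPM in lactate libraries. Lactate against media then gave -0.56 ± 0.12 (adjusted p = 0.00342) and media against naïve -0.55 ± 0.12 (adjusted p = 0.00148).

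Of the 5 genes for loading and trimming in the endoplasmic reticulum, Calr and Pdia3 were higher in lactate than in media and Erap1 was lower. Calreticulin, Calr, had means of 375 CPM in media and 609 CPM in lactate (0.70 ± 0.10, adjusted p = 0.000272), and ERp57, Pdia3, of 411 and 559 CPM (0.45 ± 0.07, adjusted p = 0.000401). Erap1, the aminopeptidase that trims peptides to length, had means of 131 and 101 CPM (-0.37 ± 0.10, adjusted p = 0.00972), and 11.5% of its exon bases overlap Cast on the opposite strand. Its adjusted p under the donor block was 0.0915. Calnexin, Canx, overlapped between the groups (0.07 ± 0.09, adjusted p = 0.61). Tapbpl, a relative of tapasin, was lower in each lactate library but was not called (-0.42 ± 0.19, adjusted p = 0.106).

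Among the proteasome activators, Psme1 and Psme2, the interferon-inducible PA28 pair, were not called (-0.10 ± 0.10 and 0.24 ± 0.09, adjusted p = 0.469 and 0.0558). Psme3, the nuclear PA28 relative, rose from a mean of 140 CPM in media to 340 CPM in lactate (1.28 ± 0.14, adjusted p = 7.66e-05). Pomp, the assembly chaperone of new proteasomes, rose by 0.56 ± 0.13 on the log2 scale (adjusted p = 0.00428). Of the 7 cytosolic and trimming peptidases, Lap3 (1.17 ± 0.19, adjusted p = 0.000524) and Thop1 (1.09 ± 0.16, adjusted p = 0.000358) were higher and Lnpep (-1.13 ± 0.17, adjusted p = 0.000368) was lower. The donor block gave an adjusted p of 0.0822 for Pomp and 0.0192 for Lap3. Nrdc had a log2 difference of -0.19 ± 0.07 (adjusted p = 0.0487).

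**Figure D4:**
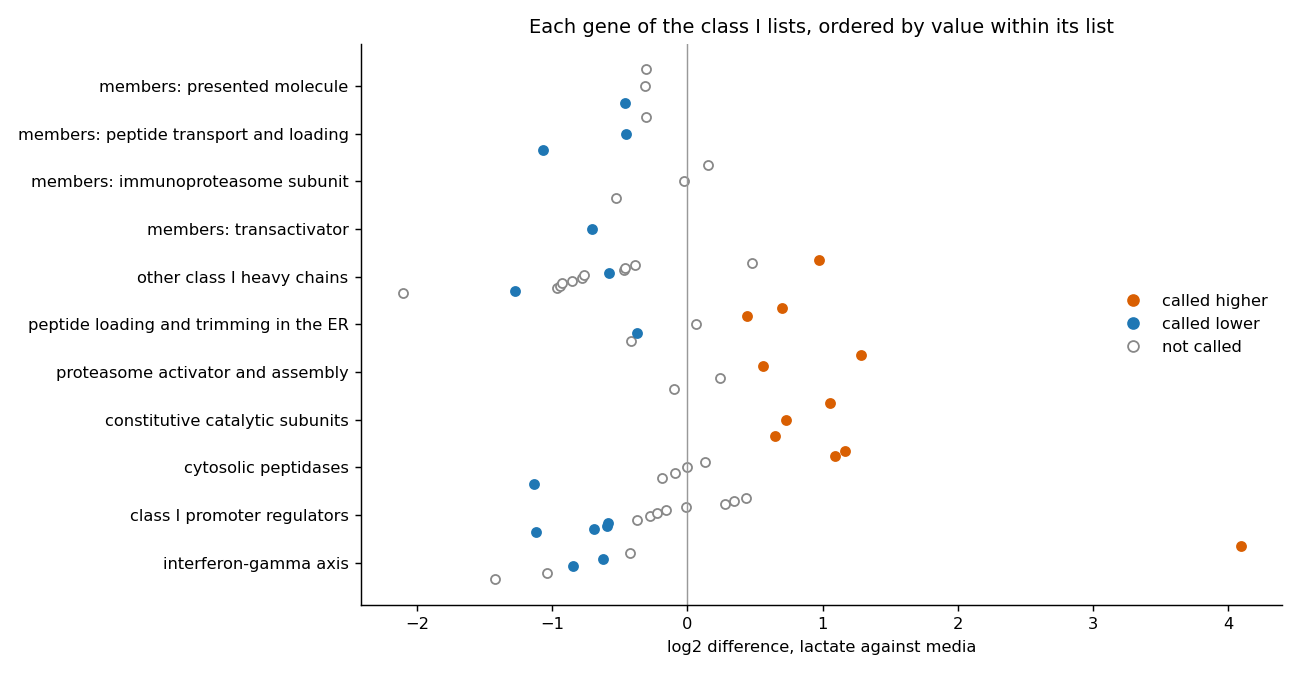
log2 difference of lactate against media for each gene of the class I lists, by list and ordered by value within it; coloured points have an adjusted p of 0.01 or less. The 3 constitutive catalytic subunits all lie to the right of 0, most other heavy chains lie to the left, and the point near 4 is Ifng.

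The comparisons with naïve cells share libraries with the comparison above, and their values are set beside it without a test of likeness. Of the 10 genes, 6 were called in media against naïve, 3 higher (Tap1, Psmb8 and Psmb9) and 3 lower (H2-K1, H2-D1 and Psmb10), where 57.5% of all genes were called, 28.5% higher and 29.0% lower. The 2 groups did not overlap for 7 of the 10 genes, 3 higher and 4 lower, against 61.2% of all genes, 30.7% higher and 30.5% lower. In lactate against naïve 8 were called, Psmb8 higher and 7 lower, where 65.0% of all genes were called, 33.0% higher and 32.0% lower. The same 8 genes did not overlap, against 67.8% of all genes, 35.0% higher and 32.8% lower. The 7 lower genes were H2-K1, H2-D1, B2m, Tap2, Tapbp, Psmb10 and Nlrc5, and these are also the 7 whose means fell from naïve to media to lactate. B2m was at -0.50 ± 0.11 in lactate against naïve (adjusted p = 0.00117). Psmb9 stood between naïve and media in the lactate libraries, 0.51 ± 0.17 above naïve (adjusted p = 0.0154).

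The naïve libraries held B cell, myeloid, NK cell, red cell and class II markers at levels far above those of the activated libraries. The 4 CD8+ T cell markers summed to 1376 to 3105 CPM in naïve libraries. The 2 CD4+ T cell markers summed to 25.1 to 53.7 CPM in naïve, 44.3 to 57.6 CPM in media and 72.25 to 90.7 CPM in lactate libraries. In media against naïve 1 of the 2 was called lower and 1 higher, with log2 differences of -5.95 and 1.11. Nearly all of the sum in activated libraries was Zbtb7b, with means of 47.4 CPM in media and 81.4 CPM in lactate. Cd4 itself had means of 0.348 and 0.541 CPM there. The 2 NK cell markers summed to 3.12 to 8.04 CPM in naïve and at most 0.708 CPM in activated libraries. The 5 B cell markers summed to 466 to 1144 CPM in naïve libraries and to at most 16.2 CPM in activated ones. The 7 myeloid and dendritic cell markers summed to 470.1 to 1485 CPM in naïve and at most 3.24 CPM in activated libraries. The 10 MHC class II markers summed to 3670 to 6722 CPM in naïve, 207 to 272 CPM in media and 113 to 207 CPM in lactate libraries. Red cell markers summed to 172 to 6870 CPM in naïve libraries and at most 5.92 CPM in activated ones. All B cell, myeloid and class II markers had counts in each of the 3 groups. B and myeloid cells also express class I genes, and the part of these cells in the naïve values was not tested.

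Within each group the 10 genes tended to be high or low together. Naïve replicate 3 was the highest naïve library for all 10, and its B cell and class II sums were the lowest of the naïve libraries. Naïve replicate 4 was the lowest for 8 of 10. Its myeloid and red cell sums, 470.1 and 172.4 CPM, were the lowest of the naïve libraries. Media replicate 2 was the highest media library for 7 genes, and lactate replicate 2 the highest lactate library for 8. Over the 12 libraries, the Pearson r of the deviations from the group means was positive for all 45 pairs of the 10 genes, with a median of 0.645 and a range from 0.24 to 0.955. Pairs of genes from the same libraries share depth and composition, so these r values are a description.

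The genes whose log2 CPM ran most like that of Nlrc5 over the 12 libraries were Fmnl1 (r = 0.967), Gm8995 (0.961), Phf21a (0.957), Cd226 (0.956) and Ifi203 (0.954), where Ifi203 shares its row with LOC102641031. Their r with Nlrc5 after removal of the group means lay between 0.768 and 0.837. Most like the mean of the 10 genes were Ctsw (0.959), Arhgap9 (0.956), Fam98c (0.953), Trim12c (0.952) and Stat2 (0.952), with r between 0.854 and 0.931 after removal of the group means. Stat2, which codes for a transcription factor of the type I interferon pathway, had means of 105.2 CPM in naïve, 114 CPM in media and 68.7 CPM in lactate libraries, and kept the highest of these r values. The r over libraries is set in large part by the 3 group means.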

How the data were processed

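RNA sequencing of 12 libraries was analysed from the raw gene counts that the authors deposited. By their methods and the processing notes, base calls were converted with bcl2fastq 2.20.0.422, reads of 71 bases were aligned to GRCm38 with STAR 2.7.5b with removal of PCR duplicates, and uniquely mapped reads were counted in Ensembl exons with featureCounts. The library kit is stranded, and whether the counting used the strand is not given in the sources used here. The deposited counts are whole numbers, with totals of 14726904 to 21478137 per library, in a table already limited to expressed genes. The gene lengths of the same table were used for TPM.

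The filter of the authors, 1 CPM in at least 3 libraries, kept 13767 of 13780 genes, which were fitted with edgeR 4.0.16 (R 4.3.3, TMM, a term per group, all 12 libraries, quasi-likelihood F test, Benjamini-Hochberg, adjusted p at most 0.01). Counts were simulated with 1 common spread for all genes, a biological coefficient of variation of 23.5%. In these, changes of 4-fold were recovered in 100% and of 2-fold in 46.8% of cases for lactate against media. Real genes differ in their spread, so these shares are not the recovery for the 10 genes. Ratios were compared by exact permutation of 4 against 4 libraries, which does not take the shared donors of media and lactate libraries into account. Leave-one-out fits, DESeq2 1.42.0, limma voom 3.58.1, other scalings, filters, thresholds, and terms for donor, title number and library run were the alternatives. The 10 genes, the lists, the markers and the motifs were chosen with earlier results of these data or the promoters known. The genes named from each list were all measured ones where it held at most 6, otherwise the 4 with the smallest adjusted p, and in addition a fixed set of regulators, subunits and H2-T23. Genes named outside it, such as Rfxap or Nfkb1, were named to complete a count. Values of 1 gene of the interferon-gamma list are not reported here.

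The donor tags in the labels join media replicates 1, 3 and 4 with lactate replicates 1, 2 and 4, and the deviations from the group means correlated at 0.374, 0.211 and 0.553 for these pairs across genes. Library numbers fall into a low and a high run, and tags were read within each. The low run held 3 naïve, 3 media and 2 lactate libraries. In the fit with a donor block the naïve libraries shared 1 level. Coordinates and exon overlaps are from GENCODE M21 on GRCm38, and promoter windows are from RefSeq.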

Additional observations from a re-analysis of the deposited data

Results flagged for a closer look

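In 10 of 141 groups of 4 libraries examined, 1 library stood far from the other 3 for a gene named in the report. Chance alone does so in about 1 of 20 groups. Among the 10 presentation genes this concerned H2-D1, which had 1033 CPM in lactate replicate 1 and 1236 to 1257 CPM in the other lactate libraries. Media replicate 2 stood apart for 4 genes, with 285 CPM of H2-T23 (others 206.5 to 216), 105 CPM of Psmb7 (126 to 129.8), 39.2 CPM of Lap3 (55.6 to 58.6) and 629 CPM of Jak1 (473 to 498). Media replicate 1 had 161 CPM of Psme2 (143.6 to 145.8), and media replicate 4 had 557 CPM of Irf1 (95.3 to 161). Naïve replicate 4 had 91.8 CPM of Psmb6 (median of the 4 libraries 69.6) and 1008 CPM of Ifngr1 (235.5 to 271). Lactate replicate 3 had 219 CPM of Nrdc (206.3 to 208). No test of a cause was made.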

How the results depend on the processing

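The count of presentation genes called between lactate and media, 4 of 10, was 7 with DESeq2's Wald test, 7 with the threshold moved to 0.05, 2 with a term for the library run, 2 with the replicate block by title number and 1 with the replicate block by donor. It ranged from 1 to 6 when 1 library was left out, with 6 without naïve replicate 4. It was 1 without media replicate 2 or without lactate replicates 1, 3 or 4, and 2 without naïve replicate 2, media replicate 1 or media replicate 4. Among all genes tested, 3451 of 13767 were called in the reported fit, 4551 with DESeq2 and 3572 with the run term. The title block called 3256 of them and the donor block 992. With 1 library left out, 2252 (without media replicate 2) to 4845 (without naïve replicate 4) were called, of 13430 to 13732 tested. The number at the threshold of 0.05 is not given here. Of the 51 other pathway rows, 21 were called, against 35 with DESeq2, 36 with the threshold at 0.05, 10 with the donor block and 15 to 31 with 1 library left out. The counts of media against naïve (6 to 7 with 1 library left out) and of lactate against naïve (8 to 9) stayed within 1.5 times of the reported ones under all alternatives. Among all genes tested, 7074 to 8357 and 8113 to 9335 were called in these 2 comparisons with 1 library left out. The title numbers pair all 4 media and lactate libraries, with correlations of the deviations between 0.0038 and 0.553, so they were not taken as pairs.

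Psmb10 in lactate against media, near 0 throughout, changed sign to 0.0205 with the donor block, 0.0244 with the run term, 0.0031 without media replicate 1, 0.0096 without lactate replicate 3 and 0.0823 within the low run, and its values with 1 library left out ran from -0.0859 to 0.0096. B2m and Nlrc5 in media against naïve changed sign within the high run (0.022 and 0.0697), which holds 1 library of each. Irf1 in lactate against media was 0.57 without media replicate 4, the highest of its leave-one-out values, of which the lowest was -0.83 without lactate replicate 4. For the ratios, the log2 differences of media against naïve within the high run were 1.10 (Psmb8/Psmb5), 1.15 (Psmb9/Psmb6), -1.19 (Psmb10/Psmb7), -0.95 (H2-K1/B2m) and -0.58 (H2-D1/B2m), and those of lactate against naïve were 0.27, 0.012, -2.07 and -0.99 for the first 4. In the low run H2-K1/B2m in lactate against naïve was -0.62. The causes were not tested.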
